A study of Mus musculus with 6 samples.

Results

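The genes described here are small secreted or cell-surface proteins of cartilage (Ucma, Mgp, Mia, Cytl1, Snorc and Scrg1), the cartilage intermediate layer proteins Cilp and Cilp2, and the spondins Spon1 and Spon2. They were chosen by gene symbol as protein families, with results of the FP and RR comparison already known, among them FPKM values of Spon1, Cilp2 and Ucma. Values in FP against RR are therefore given as a description, with no test of their own. Of the 10 symbols, 9 were found among the 24346 genes of the files, Mia1 as Mia. Snorc was absent as a symbol, but a row named 3110079O15Rik was present, which RefSeq gives as its former symbol. That row is described beside the 9 genes and is not counted with them.

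Gene expression was measured by RNA-seq of total RNA in mouse spheno-occipital synchondrosis, a cartilage of the skull base at which bones lengthen. Flat and round chondrocyte layers were captured by laser from frozen sections. There were 3 FP and 3 RR libraries, numbered 11, 14 and 16 in each group, and no label spells out the codes FP and RR. All 6 came from the same genotype and treatment: mice with Gli1CreERT2, a Cre recombinase that tamoxifen switches on in cells using the Gli1 gene, and a floxed Tomato reporter, given tamoxifen at P3. No source used here gives age at collection, number of animals or cells per capture. In such bulk samples, fewer cells of a type and less RNA per cell cannot be told apart.

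Cartilage matrix is built and kept free of mineral by secreted proteins, and chondrocytes change which of them they make as they pass from the resting to the columnar and hypertrophic state. Matrix Gla protein (Mgp) and the Gla-rich protein Ucma carry glutamates that a vitamin K-dependent carboxylase turns into calcium-binding Gla residues. Mgp is known as an inhibitor of calcification in cartilage and arteries, and Ucma as a protein of growth cartilage. Spondins are matrix glycoproteins with thrombospondin type 1 repeats, and CILP proteins lie in the matrix between chondrocytes.

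Levels are in FPKM, fragment counts scaled to transcript length and library size, so that they can be compared between genes. FPKM summed over all genes ran from 680243 to 1126070 in FP libraries and from 547371 to 886539 in RR libraries. Folds between groups thus depend on how libraries are scaled. Judged from the steps between low values, 1 fragment on a transcript of 2000 bp was worth 0.128 to 0.252 FPKM in FP libraries and 0.174 to 0.296 FPKM in RR libraries. The total number of fragments is unknown. The captures carried the markers of cartilage: the 9 chondrocyte markers, led by Col2a1, summed to 48556 to 82062 FPKM in FP and 42659 to 88165 FPKM in RR. The 5 hypertrophic markers, among them Col10a1, summed to 576 to 678 FPKM in FP and 11.7 to 29.8 FPKM in RR. By contrast, the 5 resting markers, among them Pthlh, summed to 41.7 to 48.7 FPKM in FP and 434 to 692 FPKM in RR.

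The spondins differed in opposite directions: Spon1 was 11.4-fold lower and Spon2 13.1-fold higher in FP than in RR, as ratios of mean FPKM. Cilp2 was 7.12-fold lower in FP, while its paralogue Cilp was near 1 FPKM in both groups. Cytl1 was 2.95-fold higher in FP. The most abundant members, Mgp and Ucma, had overlapping groups.

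**Figure D1:**
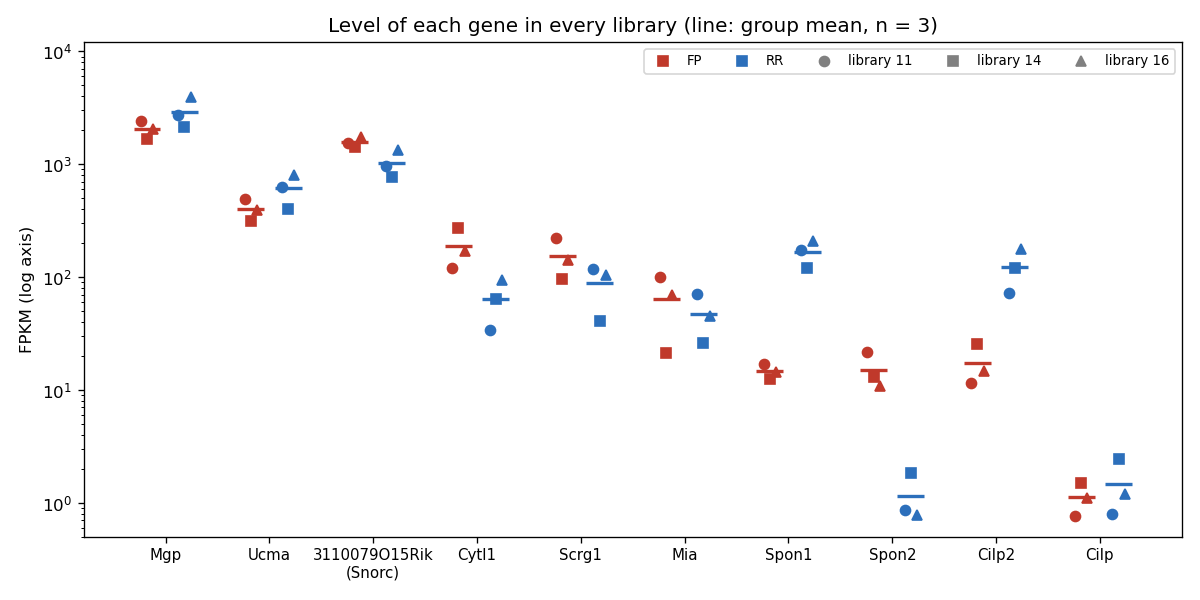
FPKM of each gene in every library on a log axis, with FP in red left of RR in blue, a marker shape for each library number and a line at the mean of 3 libraries. Spon1 and Cilp2 sit lower and Spon2 and Cytl1 higher in all 3 FP libraries than in any RR library.

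Spon1 codes for F-spondin, a secreted matrix protein first known from the floor plate of the embryonic spinal cord. On mm10 the gene lies on chromosome 7 from 113765998 to 114043370, on the plus strand. Spon1 had 17.1, 12.5 and 14.5 FPKM in FP libraries 11, 14 and 16, against 173, 120 and 208 FPKM in RR libraries 11, 14 and 16. The groups did not overlap, and the lowest RR library was still far above the highest FP library. Spon1 thus averaged 14.7 ± 2.29 FPKM in FP and 167 ± 43.9 FPKM in RR (SD, n = 3 each). The log2 difference, FP minus RR on the log2(FPKM + 1) scale used throughout, was -3.39 ± 0.29 (SE). Its spread between libraries was the smallest of the 9 genes, with coefficients of variation of 15.6% in FP and 26.3% in RR.

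Spon2 codes for mindin, a smaller spondin known in mice as a matrix molecule that helps macrophages recognise microbes. The gene lies on chromosome 5 from 33198184 to 33218455 on the minus strand. Spon2 had 21.5, 13.1 and 10.9 FPKM in the FP libraries, against 0.862, 1.84 and 0.773 FPKM in the RR libraries, in the same library order. The lowest FP library lay well above the highest RR library, RR 14. Mean levels were 15.1 ± 5.63 FPKM in FP and 1.16 ± 0.589 FPKM in RR (SD, n = 3 each), with a log2 difference of 2.88 ± 0.34 (SE). The RR values rest on few molecules, about 4.53, 6.34 and 4.54 fragments on its 2045 bp transcript in RR 11, 14 and 16, so the fold is imprecise. With a pseudocount of 0.1 FPKM in place of 1, the log2 difference was 3.64.

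The balance within the pair differed between groups. In FP, Spon1 stood at 0.794, 0.959 and 1.33 times the level of Spon2 in libraries 11, 14 and 16. In RR it stood at 201, 65.6 and 268 times that level. FP captures thus held the pair at about equal levels per length, and RR captures held mostly Spon1.

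The spondin proteins, translated from the GENCODE coding sequences, have 807 residues for Spon1 and 330 for Spon2, and 40.7% of 324 aligned residues are identical. A run of tryptophan, serine, any residue and tryptophan, typical of thrombospondin type 1 repeats, occurs 3 times in Spon1 and 1 time in Spon2. The same letters also occur 2 times in Cilp and in no other protein of the family. The run first planned was wider, with any residue in place of serine. That wider run occurs 7 times in Spon1, 1 time in Spon2, 1 time in Ucma and 3 times each in Cilp and Cilp2. The coding stretches around the first run with serine in each spondin are shown to set the pair side by side. Capitals mark the codons of the tryptophan, serine and tryptophan. The Spon1 stretch covers residues 443 to 472 and the Spon2 stretch residues 277 to 306.
Spon1: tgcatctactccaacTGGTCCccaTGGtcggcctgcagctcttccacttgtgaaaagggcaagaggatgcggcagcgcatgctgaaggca
Spon2: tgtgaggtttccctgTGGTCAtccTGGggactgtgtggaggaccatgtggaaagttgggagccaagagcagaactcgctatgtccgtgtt
The longest run of bases that the 2421 coding bases of Spon1 share with the 990 of Spon2 is 12 bases long. It starts at coding base 1733 in Spon1 and 954 in Spon2. These are different places within a codon, so the run does not code for shared residues.

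Cilp2 codes for a cartilage intermediate layer protein, a large matrix protein. It lies on chromosome 8 from 69880369 to 69887687 on the minus strand. Cilp2 had 11.5, 25.4 and 14.8 FPKM in the FP libraries, against 71.9, 120 and 176 FPKM in the RR libraries. The groups did not overlap, with FP 14 the highest FP library and RR 11 the lowest RR library. Mean levels were 17.2 ± 7.28 FPKM in FP and 123 ± 52.0 FPKM in RR (SD, n = 3 each), and the log2 difference was -2.74 ± 0.41 (SE).

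Cilp, whose human protein is known to bind TGF-beta1, lies on chromosome 9 from 65265180 to 65280605. It had 0.759, 1.51 and 1.10 FPKM in FP, against 0.799, 2.43 and 1.20 FPKM in RR. The groups overlapped, and the values correspond to only 12.3 to 12.4 fragments in FP and 8.53 to 17.1 fragments in RR on its 4153 bp transcript. The log2 difference was -0.18 ± 0.40 (SE) and 0.08 without RR 14, and no difference in Cilp was called. Whether depth hid one was not tested. Cilp2 stood at 13.4 to 16.9 times the level of Cilp in FP and at 49.5 to 147 times in RR.

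**Figure D2:**
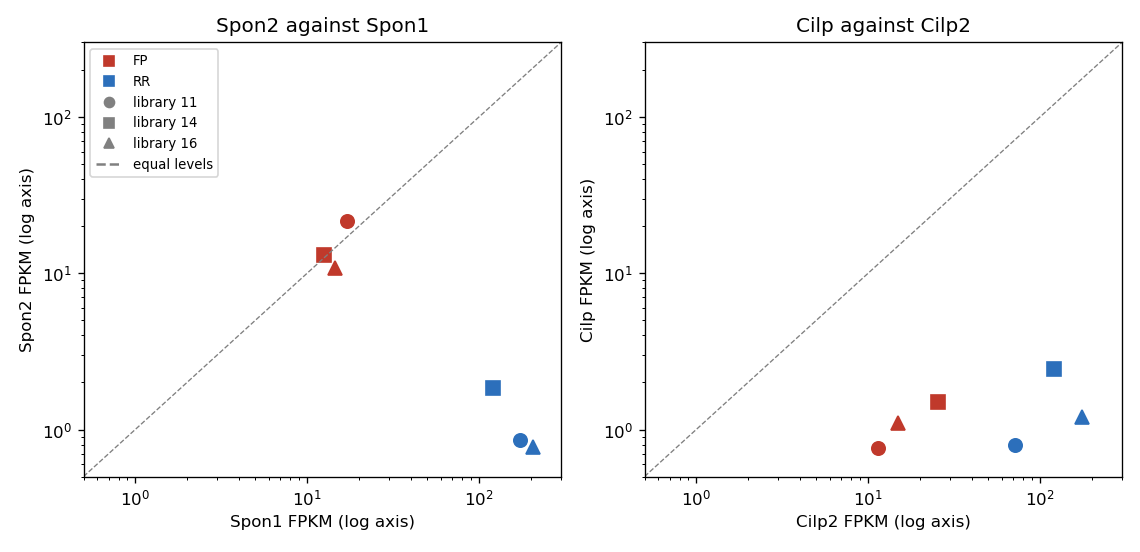
Spon2 against Spon1 (left) and Cilp against Cilp2 (right) in FPKM on log axes, 1 point per library, with FP in red, RR in blue and a dashed line of equal levels. FP libraries sit near the line for the spondins, and RR libraries far below it, while the CILP pair separates along the Cilp2 axis with Cilp between 0.759 and 2.43 FPKM.

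Cilp and Cilp2 code for 1250 and 1162 residues, of which 48.9% of 1148 aligned residues are identical. Their longest shared coding run is 14 bases. It is shown in capitals with 20 bases on each side, as the longest stretch in which the coding bases of the pair are identical.
Cilp: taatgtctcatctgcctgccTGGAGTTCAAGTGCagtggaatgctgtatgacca
Cilp2: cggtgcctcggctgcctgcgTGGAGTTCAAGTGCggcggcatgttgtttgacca
Similarity over whole reads or in untranslated parts was not compared.

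In the fit over all genes, which counts a gene as called at an adjusted p under 0.05, the called members were Spon1 and Cilp2 (lower in FP) and Spon2 (higher). That is 3 of the 9 genes, all of which passed the filter at a mean of 1 FPKM. Among all 14789 genes tested, 0.967% were called, 0.554% higher and 0.412% lower in FP. Since this contrast was known when the family was put together, nothing is read from the count. The median log2 difference was -0.18 over the 9 genes, 4 of them higher and 5 lower in FP by their estimate, and 0.02 over all genes tested. Groups did not overlap for 4 of the 9 genes (Spon1, Cilp2, Spon2 and Cytl1) and for 16% of all genes tested. Spon1 and Spon2 were called in each of the 6 fits without 1 library. Cilp2 was called in 2 of them and not without FP 11, FP 16, RR 14 or RR 16; over all 6 its log2 difference stayed between -3.08 and -2.44. Without both libraries numbered 14, Spon1 alone was called.

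**Figure D3:**
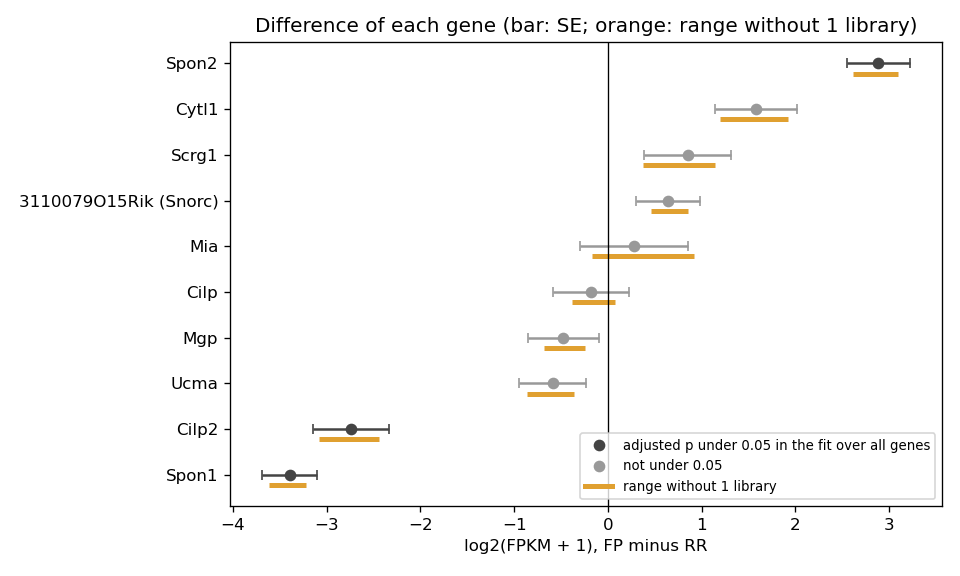
Log2 difference of each gene, FP minus RR on the log2(FPKM + 1) scale, as points with SE bars, dark where the gene was called in the fit over all genes, and in orange the range over the 6 fits without 1 library. Spon2 at 2.88 and Spon1 at -3.39 stand at the ends, and the ranges of Mia and Cilp cross 0.

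Markers of other cell types were read beside these values. The 6 fibroblast and perichondrium markers summed to 81.4 to 149 FPKM in FP and 208 to 389 FPKM in RR, in the same direction as Spon1 and Cilp2. Of the 6, 3 had the higher mean in FP, or 1 to 3 without 1 library, and decorin (Dcn), at 38.3 to 59.2 FPKM in FP and 147 to 294 FPKM in RR, held most of the RR sum. The 4 tendon and ligament markers summed to 4.52 to 11.02 FPKM in FP and 7.52 to 11.6 FPKM in RR. The 4 macrophage markers, read beside Spon2, summed to 15.6, 16.4 and 81.7 FPKM in FP and 57.5, 12.9 and 16.6 FPKM in RR, and Lyz2 alone had 76.4 FPKM in FP 16. Of the osteoblast and osteocyte list, Ibsp had 90.8 to 191 FPKM in FP and 7.18 to 41.6 FPKM in RR, and Sp7 had 29.3 to 40.7 FPKM in FP and 3.08 to 5.56 FPKM in RR, the direction of Spon2. Of the 8 genes of that list, only 3 had the higher mean in FP, or 2 to 7 without 1 library. The sum of all 8 overlapped, at 359 to 1046 FPKM in FP and 235 to 1683 FPKM in RR. All 6 skeletal muscle markers had the higher mean in FP, with sums of 112 to 182 FPKM in FP and 28.8 to 156 FPKM in RR. None of the 4 endothelial markers did, with sums of 5.31 to 7.81 FPKM in FP and 4.97 to 15.2 FPKM in RR. Bglap2 was at 0 in libraries 14 and 16 of both groups, Sost in FP 14 and RR 14, and Bglap in RR 14. No marker of these lists was at 0 in all 6 libraries, though Tnmd was at 0 in FP 16 and RR 16, Thbs4 in RR 16 and Lyz2 in RR 14. Their part in the spondin and Cilp2 values was not tested.

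Cytl1, which codes for a small cytokine-like protein secreted by chondrocytes, lies on chromosome 5 from 37735519 to 37739820. It had 121, 274 and 171 FPKM in FP, against 34.1, 63.6 and 94.2 FPKM in RR. All FP libraries lay above all RR libraries, with FP 11 the nearest to RR 16. Mean levels were 189 ± 77.9 FPKM in FP and 63.9 ± 30.1 FPKM in RR (SD, n = 3 each). The log2 difference of 1.58 ± 0.44 (SE) was not called in the fit over all genes. Its protein of 139 residues holds 6 cysteines.

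Scrg1, named for its rise in scrapie-infected mouse brain, codes for a small secreted protein and lies on chromosome 8 from 57455923 to 57477585. It had 220, 95.6 and 143 FPKM in FP, against 119, 40.7 and 104 FPKM in RR. The groups overlapped, since FP 14 lay below RR 11 and RR 16. The log2 difference was 0.85 ± 0.47 (SE) and ran from 0.37 without RR 14 to 1.14 without FP 14. With 8 cysteines in 98 residues, or 8.16%, Scrg1 is the most cysteine-rich protein of the family.

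Mia, also called CD-RAP, codes for a small secreted protein of chondrocytes and melanoma cells. The gene lies on chromosome 7 from 27179742 to 27181157, and GENCODE places Gm21983 over it on the same strand, so reads of their overlap cannot be told apart. Mia had 99.7, 21.3 and 69.7 FPKM in FP, against 70.1, 26.3 and 44.8 FPKM in RR. The library numbered 14 was the lowest in both groups, and the groups overlapped. With a log2 difference of 0.28 ± 0.57 (SE), between -0.17 without FP 11 and 0.92 without FP 14, Mia had no settled direction, and it stood at -0.02 after quantile normalization. Its coefficient of variation in FP, 62.2%, was the largest of the 9 genes in either group.

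The row 3110079O15Rik, annotated as Snorc on chromosome 1 from 87470271 to 87475482, belongs to a small transmembrane proteoglycan of cartilage. It had 1540, 1412 and 1758 FPKM in FP, against 974, 769 and 1335 FPKM in RR. The groups did not overlap, but FP 14 and RR 16 lay close together. The log2 difference of 0.64 ± 0.34 (SE) was not called and was 0.29 after quantile normalization.

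Mgp was the most abundant gene of the family in every library. The gene lies on chromosome 6 from 136872435 to 136875823 on the minus strand. It had 2406, 1675 and 2070 FPKM in FP, against 2726, 2118 and 3899 FPKM in RR. The groups overlapped, with FP 11 above RR 14. Mean levels were 2050 ± 366 FPKM in FP, where Mgp ranked 33rd of all genes, and 2914 ± 906 FPKM in RR, where it ranked 17th (SD, n = 3 each). The log2 difference was -0.48 ± 0.38 (SE), and -0.88 after quantile normalization. Mgp is also made by vascular smooth muscle in mice, and the 5 smooth muscle markers summed to 7.56, 5.25 and 25.4 FPKM in FP and 9.93, 6.47 and 18.5 FPKM in RR. By their means 4 of the 5 were higher in FP, and 0 of 5 without FP 16; Cnn1 was at 0 in FP 11 and FP 14. Their part in the Mgp values was not tested.

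Ucma lies on chromosome 2 from 4976122 to 4985748. It had 491, 313 and 394 FPKM in FP, against 633, 404 and 804 FPKM in RR, and FP 11 lay above RR 14. Mean levels were 399 ± 89.5 FPKM in FP and 614 ± 201 FPKM in RR (SD, n = 3 each), with a log2 difference of -0.59 ± 0.36 (SE). Ucma and Mgp kept nearly the same ratio from library to library. Mgp stood at 4.90, 5.36 and 5.25 times the level of Ucma in FP and at 4.30, 5.25 and 4.85 times in RR. Centred on their means, the log2 profiles of the pair over the 6 libraries differed by a root mean square of 0.11, the closest of any pair among the members with a mean of 5 FPKM or more, which leaves out Cilp. Of 6492 other genes at that level, 3 were closer to Mgp than Ucma was. These are descriptions over 6 libraries, and genes of the same library share its depth and scaling.

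Ucma has 19 glutamates in 138 residues, or 13.8%, and Mgp 8 in 104. Stretches of their coding sequences that hold some of these are shown because glutamate residues are what the carboxylase acts on. Capitals mark glutamate codons, 12 of 30 in Ucma (residues 88 to 117) and 4 of 30 in Mgp (residues 56 to 85). The Ucma stretch was picked as the 30 residues with the most glutamates. The Mgp stretch was placed around a run of glutamates and a cysteine typical of Gla proteins, so the counts are not comparable. That run occurs 1 time in Mgp and 0 times in Ucma.
Ucma: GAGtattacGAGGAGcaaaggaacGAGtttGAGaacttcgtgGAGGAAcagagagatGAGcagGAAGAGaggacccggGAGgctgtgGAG
Mgp: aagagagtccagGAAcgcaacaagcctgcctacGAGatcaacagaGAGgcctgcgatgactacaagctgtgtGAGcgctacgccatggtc
Which of these glutamates are carboxylated was not measured here.

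By level, the order within the family differed between groups below its top. In FP the order of mean FPKM ran Mgp, the Snorc row, Ucma, Cytl1, Scrg1, Mia, Cilp2, Spon2, Spon1 and Cilp. The ranges of Mgp and the Snorc row overlapped, as did those of neighbours from Cytl1 down to Spon1. Even so, Mgp lay above the Snorc row and Scrg1 above Mia within each of the 3 FP libraries. The steps from the Snorc row to Ucma and from Ucma to Cytl1, and the step from Spon1 to Cilp did not overlap. In RR the order ran Mgp, the Snorc row, Ucma, Spon1, Cilp2, Scrg1, Cytl1, Mia, Cilp and Spon2. There, neighbours from Spon1 to Mia overlapped, as did the Snorc row with Ucma and Cilp with Spon2. The steps from Mgp to the Snorc row, from Ucma to Spon1 and from Mia to Cilp did not. Spon1 stood 2712th among all genes by its mean in FP and 208th in RR, and Spon2 stood 2622nd in FP and 14640th in RR.

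Taken as shares of the summed FPKM of these 10 rows, Mgp held 43.6% to 48.8% in FP and 56.8% to 58.5% in RR. The Snorc row held 31.2% to 37.8% in FP and 20.02% to 20.97% in RR. The sum itself overlapped, at 3843 to 4928 FPKM in FP and 3666 to 6665 FPKM in RR. The shares of Mgp and the Snorc row thus separated where the total did not. Shares of the same sum depend on each other, and neither row was called in the fit over all genes.

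The genes most like each member over the 6 libraries were found by the same root mean square difference of centred log2 profiles, among 6492 genes outside the family. Profiles were centred over all 6 libraries. For Spon1, Spon2 and Cilp2 the nearest genes are thus mainly those with a like difference between FP and RR. Nearest to Spon1 were Cxcl14, a chemokine gene (0.19), and Apoe, the apolipoprotein E gene (0.34). Nearest to Spon2 were Enpp2, the gene of the enzyme autotaxin (0.24), and Anxa8, an annexin gene (0.38). Enpp2 had 30.5, 18.1 and 18.1 FPKM in FP and 2.47, 3.77 and 2.90 FPKM in RR. For Cilp2 they were Flrt1 (0.27) and Clmn (0.30), and Clmn had 2.44, 5.03 and 3.45 FPKM in FP and 14.6, 25.1 and 25.4 FPKM in RR.

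Among members whose groups were closer, Cytl1 was most like Wnk4, a kinase gene (0.12), and Col27a1, a cartilage collagen gene (0.18). Col27a1 had 501, 997 and 783 FPKM in FP and 166, 289 and 321 FPKM in RR. Scrg1 was most like P4hb, a protein disulfide isomerase gene, and Scd2 (0.16 each). Mia was most like Cthrc1 (0.15) and Gjc1 (0.20), Mgp like Pole4 (0.07) and Fstl1 (0.09), and Ucma like Bsg (0.12) and Frmd6 (0.14). The Snorc row was most like Scarb1 (0.04) and Surf4 (0.05).

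Genes of the same families and of the steps around them, which are not members, were tested in the same fit with limma over all genes. The labels do not tie libraries to separate animals, and these p-values measure the spread between the samples, which may be technical. In all, 3 genes of these lists were called, 2 higher and 1 lower in FP, beside the 0.967% of all genes tested.

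Of 22 genes of Gla proteins and gamma-carboxylation, 15 were tested and 0 were called in either direction. The median log2 difference was 0.05. Ggcx, the carboxylase itself, had 28.3, 14.1 and 18.6 FPKM in FP, against 24.7, 19.0 and 18.5 FPKM in RR (log2 difference -0.07 ± 0.31, SE). Vkorc1, which recycles vitamin K, had 59.9, 51.1 and 69.3 FPKM in FP, against 46.2, 43.0 and 73.2 FPKM in RR. Calu, of a calcium-binding protein of the endoplasmic reticulum and the list's most abundant gene, had 151, 40.7 and 49.4 FPKM in FP and 97.7, 27.5 and 53.0 FPKM in RR. Gas6, a Gla-containing ligand, had 15.9, 19.2 and 20.04 FPKM in FP, below all of 28.5, 33.0 and 47.3 FPKM in RR, but was not called (limma adjusted p = 0.26). Bglap, Bglap2 and Bglap3 are near copies of each other, and their reads may be split between them.

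Of the MIA and OTOR family, 3 of 4 genes were tested and 0 called, with a median log2 difference of 0.19. Mia3, which exports collagen from the endoplasmic reticulum, had 45.4, 24.1 and 25.7 FPKM in FP, against 28.4, 22.9 and 25.9 FPKM in RR. Of 11 spondin and R-spondin kin, 7 were tested and 0 called, with a median of -0.27. Rspo3, a Wnt-enhancing R-spondin and the most abundant of them, had 45.4, 12.5 and 18.8 FPKM in FP, against 28.8, 11.9 and 19.2 FPKM in RR.

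Of 14 genes of proteins known to bind members or act with them, 10 were tested and 1 was called. Igf1, the insulin-like growth factor 1 gene, whose signalling human CILP is known to dampen, had 6.36, 1.62 and 1.51 FPKM in FP, against 37.9, 30.5 and 40.0 FPKM in RR (log2 difference -3.34 ± 0.42, SE; limma adjusted p = 0.011). The call was kept in 4 of the 6 fits without 1 library and lost without FP 16 or RR 16, with an adjusted p of up to 0.060. Igf1 overlaps a gene on the opposite strand, Igf1os, and no source used here says whether counting used strand. Tgfb1, which human CILP binds, had 17.1, 37.0 and 33.8 FPKM in FP, against 8.71, 9.87 and 8.82 FPKM in RR, and was not called (limma adjusted p = 0.095), though it was called without FP 11. Lrp8, a receptor that binds F-spondin, had 7.43, 6.48 and 7.26 FPKM in FP, against 1.48, 2.05 and 3.42 FPKM in RR (limma adjusted p = 0.11). App, the amyloid precursor protein gene and the list's most abundant, had 134, 97.1 and 117 FPKM in FP, against 146, 147 and 190 FPKM in RR (limma adjusted p = 0.65).

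Of 20 cartilage-selective secreted genes, 19 were tested, 2 were called higher and 0 lower in FP, and the median log2 difference was 0.37. By their estimate, 14 of the 19 were higher in FP. Pcolce2, a procollagen C-proteinase enhancer, had 112, 51.5 and 68.3 FPKM in FP, against 12.2, 3.21 and 10.8 FPKM in RR (log2 difference 3.10 ± 0.48, SE; limma adjusted p = 0.026). Epyc, a small leucine-rich proteoglycan, had 52.9, 32.8 and 24.7 FPKM in FP, against 2.07, 7.02 and 0.621 FPKM in RR (3.40 ± 0.55; limma adjusted p = 0.031). Without 1 library, the Pcolce2 call was kept in 2 of 6 fits and the Epyc call in 1, with adjusted p of up to 0.11 in each case. With a pseudocount of 0.1 FPKM, Epyc was not called. Col11a2, the most abundant gene of the list, had 3304, 9462 and 7750 FPKM in FP, against 1776, 4070 and 5866 FPKM in RR, with overlapping groups (limma adjusted p = 0.72). In the other direction, Ogn had 9.47, 3.53 and 4.01 FPKM in FP, below all of 38.7, 17.6 and 18.8 FPKM in RR. It was not called (log2 difference -1.98 ± 0.42, SE, limma adjusted p = 0.089).

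**Figure D4:**
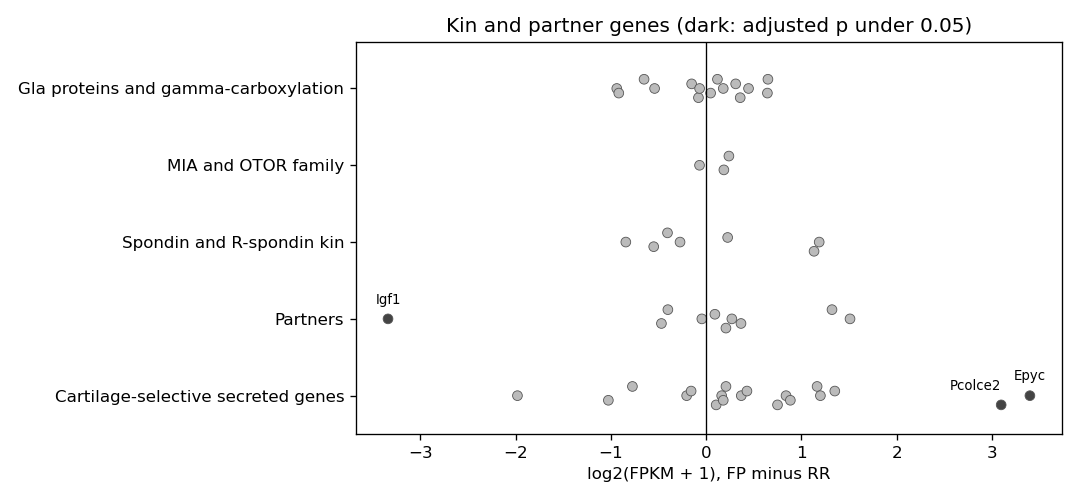
Log2 difference, FP minus RR on the log2(FPKM + 1) scale, of the tested genes of 5 lists of kin and partner genes, 1 point per gene, dark where the adjusted p was under 0.05. Most points lie within 1 of 0, and Igf1 at -3.34, Pcolce2 at 3.10 and Epyc at 3.40 are the called genes.

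Promoters, taken from RefSeq on GRCm38.p6 as the 250 bases before RefSeq's own gene start, were found for 5 of the 10 symbols: Ucma, Mia, Cytl1, Cilp and Cilp2. Both strands were searched for 5 short motifs, counted as held or not held. The SOX core motif ACAAAG was held by 16.5% of all 32851 promoters in the table. The RUNX motif AACCACA was held by 4.40% of them. For the AP-1 motif TGACTCA the share was 4.46%. The GLI motif GACCACCCA was in 0.225%. The TATA box, TATAAA, was in 12.4%. No motif contains another. The single match among the 5 was AACCACA before Ucma, starting 63 bases before its start. It is shown in capitals with 20 bases on each side, as the only match of the family, on the plus strand at chr2:4976039-4976085.
Ucma: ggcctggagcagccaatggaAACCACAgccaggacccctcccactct
The other 4 windows held none of these 5 exact strings. Looser forms of the motifs were not searched, so a variant TATA box, for example, would be missed. RefSeq and GENCODE place some starts differently: the Cilp2 window lies wholly, and the Mia window by a few bases, inside the GENCODE gene.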

How the data were processed

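The authors deposited an FPKM value per gene symbol and library. The submitters' processing notes name Cuffdiff 2.2.1, TopHat2 2.1.1, SAMtools 0.1.18 and Bowtie2 2.2.8, and the build mm10. No source used here gives the gene annotation, the scaling between libraries or the use of strand. Per the labels, libraries were made from total RNA with a SMARTer stranded pico kit.

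FP and RR were compared on log2(FPKM + 1), two-sided, by limma 3.58.1 (R 4.3.3) with a trended prior variance. The fit took in 14789 genes averaging 1 FPKM or more, was adjusted by Benjamini-Hochberg over them, and was tested on simulated data. The simulated noise was independent between libraries, so that test does not cover deviations shared by libraries of the same number. Members and lists were chosen with earlier results of these data known. Named beside the members are the called genes of each list, or its most abundant gene where none was called, and the 2 most similar genes per member among those averaging 5 FPKM or more. Ggcx, Vkorc1, Gas6, Tgfb1, Lrp8, App, Col11a2 and Ogn were added after their values were seen.

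Annotation, transcript lengths and coding sequences came from GENCODE M21, where all 10 rows were found. Protein features were planned on a protein table, and were computed here from translated coding sequences with Biopython 1.88. The worth of 1 fragment was estimated from 3524 genes with 1 transcript of 1500 to 3000 bp, where 70.6% to 74.2% of low values fell within 0.1 of a whole number of fragments.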

Additional observations from a re-analysis of the deposited data

How the results depend on the processing

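Spon1, Cilp2 and Spon2 were the called members with a pseudocount of 0.1, without a filter, with a filter at 5 FPKM, after upper quartile scaling or quantile normalization and without an intensity trend. Without both libraries numbered 14, 1 member was called, Spon1. Leaving out 1 library gave 2 to 3. With the library number as a replicate block 4 were called, Cytl1 being added. Same-numbered libraries deviated from their group means together at r = 0.319, 0.185 and 0.089 for 11, 14 and 16. The titles share these numbers between the groups, but no label says what a number marks. Each library also correlated best with its own number, which is a hint and not a stated design, so they were not treated as pairs.

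Of all genes, 143 were called, 83 without an intensity trend, 271 with the replicate block, 8 without both libraries numbered 14 and 42 to 85 without 1 library. Of the kin genes 3 were called, 2 (Igf1 and Pcolce2) with a pseudocount of 0.1, 1 (Igf1) without an intensity trend, 7 with the replicate block (Matn3, Ogn, Omd and Tgfb1 being added), 0 without both libraries numbered 14 and 0 to 3 without 1 library. The causes were not tested. Of 124 alternative values of the 9 members' log2 differences, 122 moved by less than the spread between libraries. The filters, the intensity trend and the replicate block cannot change these values, so agreement there was fixed in advance. Some values of Mia and Cilp changed sign and still count among the 122. No called value changed sign. Few fragments lie behind the values of Cilp in both groups and of Spon2 in RR.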
